A study of Mus musculus with 6 samples.

Results

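Ano3, Pkp1, Grm6, Cdh13 and Scin are 5 protein-coding genes best known from tissues other than blood, and they were picked out of the 23608 rows of a count table because they were almost silent in leukemia cells of oil-treated mice and high in leukemia cells of tamoxifen-treated mice. Because the oil and tamoxifen levels chose these genes, the differences between the groups are given as a description and not as a test. All 5 rows were found, and all 5 passed the low-count filter that left 11614 genes to be tested.

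The libraries were made from GFP+ Lin- c-Kit+ splenocytes of mice carrying leukemia driven by AML1-ETO9a (AE9a), a truncated AML1-ETO fusion protein. The leukemia came from fetal liver cells of Usp18+/f UBCER-Cre mice that were transduced with an AE9a-GFP retrovirus and passed through recipient mice. UBCER-Cre is a Cre recombinase under a ubiquitously active promoter that works once tamoxifen is present. All 6 libraries share the fusion protein, the retroviral GFP, the Cre and a starting genotype with 1 floxed copy of Usp18. Usp18 is a negative regulator of type I interferon signaling. By the labels the floxed copy is deleted in the tamoxifen libraries. After the recipients became sick, 3 received oil (labelled Usp18+/f) and 3 received tamoxifen (labelled Usp18+/D), and cells were sorted 3 days after the first injection. No oil-treated recipient received tamoxifen, so the drug and the deletion cannot be told apart. The paper names C57BL/6 wild-type recipients and, for the study as a whole, mice of both sexes within 1 range of age. It gives 3 injections of oil or tamoxifen before these cells were sorted. The labels give neither the age of these recipients nor whether the leukemias came from 1 transduction.

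Each library held between 17118964 and 20741399 counts. Levels are given as CPM, the count scaled to the size of the library after TMM adjustment between libraries, and 3 counts corresponded to 0.145 to 0.177 CPM. Such floors cover counting error only. Libraries are numbered as in the table, where oil holds 1, 3 and 4 and tamoxifen holds 1, 2 and 4. For Usp18 itself oil 1, 3 and 4 gave 162, 226 and 217.5 counts. Tamoxifen 1, 2 and 4 gave 275.5, 474.5 and 351.5. It was not lower in the libraries labelled tamoxifen (log2 fold change 0.998, SE 0.23, edgeR adjusted p = 0.0739). Whether the counted exons lie in the deleted part is not given in the sources used here, so this level does not check the labels, on which each direction below rests. Among interferon-induced genes, chosen here after their values were seen, Mx2 had a log2 fold change of 4.28 (edgeR adjusted p = 0.0399), Ifit1 of 2.18 (adjusted p = 0.0609) and Oas2 of 0.09 (adjusted p = 0.88). Tamoxifen 4 stood apart from its group, with a chi-square per degree of freedom of 57.3 and 69.1 against tamoxifen 1 and 2, where tamoxifen 1 and 2 gave 18.4 and pairs of oil libraries 7.32 to 10.1. Kit, which encodes the c-Kit of the sort, had 439 to 451 CPM in oil and 447 to 781 CPM in tamoxifen. Runx1t1, whose sequence forms the ETO part of the fusion, had at least 106 CPM in every library. The sorted cells were not alike in all markers, since Cd34 had 8.43 to 11.7 CPM in oil and 41.8 to 134 CPM in tamoxifen. The myeloid granule gene Mpo did not exceed 0.236 CPM in any library.

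The 5 genes belong to unrelated families. Ano3 encodes anoctamin 3 of the TMEM16 family of membrane proteins, a family of calcium-activated chloride channels and lipid scramblases, and is known mainly from the brain. Pkp1 encodes plakophilin 1, an armadillo protein of the desmosomal plaque in stratified epithelia such as the epidermis. Grm6 encodes the metabotropic glutamate receptor mGluR6, by which ON bipolar cells of the retina sense glutamate released from photoreceptors. Cdh13 encodes T-cadherin, a cadherin held in the membrane by a lipid anchor, without the cytoplasmic tail by which classical cadherins bind catenins, and a receptor for adiponectin on vascular and muscle cells. Scin encodes scinderin (adseverin), a calcium-dependent actin-severing protein of the gelsolin superfamily, known from secretory cells.

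The loci lie on 5 different chromosomes of mm10 (GRCm38). Ano3 occupies chromosome 2 from 110655201 to 110950923 on the minus strand, and Pkp1 chromosome 1 from 135871395 to 135919207 on the minus strand. Grm6 lies on chromosome 11 from 50850685 to 50866208 on the plus strand, Cdh13 on chromosome 8 from 118283733 to 119324921 on the plus strand, and Scin on chromosome 12 from 40059769 to 40134228 on the minus strand. Their lengths have no common size: Cdh13 spans 1041189 bp, longer than 99.8% of protein-coding genes in GENCODE M21, whereas Grm6 spans 15524 bp, longer than 46.9%. The strand setting of the counting was not stated, so reads of a gene on the other strand cannot be told apart where exons overlap. The exons of Grm6 share 599 bp with the antisense gene Gm12660, which was not analysed here. The exons of Ano3 share 61 bp with Muc15 on the other strand, which had 0 counts in every oil library and 4, 5.5 and 0 counts in tamoxifen 1, 2 and 4. No exon of Pkp1, Cdh13 or Scin overlapped an exon of another annotated gene.

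Promoter sequences are shown because the 5 genes were high in the same libraries, so that their starts can be read side by side. RefSeq (GRCm38.p6) gave entries for 3 of the 5 genes, Ano3, Grm6 and Scin, with 2 starts for Ano3. The sequences are the 250 bases before each start site, 5′ to 3′ on the strand of the gene, at chr2:110950245-110950494 (minus strand) for the upstream start and chr2:110840060-110840309 (minus strand) for the internal start of Ano3, chr11:50850435-50850684 (plus strand) for Grm6 and chr12:40134229-40134478 (minus strand) for Scin. Capitals mark matches to any of the 10 motifs that were searched.
Ano3 upstream start: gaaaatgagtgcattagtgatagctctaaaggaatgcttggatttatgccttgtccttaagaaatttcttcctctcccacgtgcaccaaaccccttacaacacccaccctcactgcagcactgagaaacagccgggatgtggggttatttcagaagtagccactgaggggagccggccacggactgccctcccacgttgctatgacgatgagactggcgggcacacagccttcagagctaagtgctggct
Ano3 internal start: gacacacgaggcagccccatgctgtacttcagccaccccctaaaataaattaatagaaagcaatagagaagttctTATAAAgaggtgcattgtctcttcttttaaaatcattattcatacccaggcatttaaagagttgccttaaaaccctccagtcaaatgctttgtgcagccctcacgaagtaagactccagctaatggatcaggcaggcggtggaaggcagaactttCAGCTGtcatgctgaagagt
Grm6: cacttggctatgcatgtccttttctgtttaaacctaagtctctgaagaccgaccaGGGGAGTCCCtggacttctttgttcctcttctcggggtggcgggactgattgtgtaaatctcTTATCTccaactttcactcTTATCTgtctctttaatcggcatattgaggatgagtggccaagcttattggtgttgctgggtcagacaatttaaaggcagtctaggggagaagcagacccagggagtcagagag
Scin: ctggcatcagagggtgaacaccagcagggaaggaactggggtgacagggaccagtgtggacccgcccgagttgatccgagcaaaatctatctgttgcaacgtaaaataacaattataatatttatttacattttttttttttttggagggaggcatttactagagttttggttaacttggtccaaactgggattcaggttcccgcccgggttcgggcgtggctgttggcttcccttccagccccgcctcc

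The motifs were searched on both strands, and the share of all 32851 promoter windows of this length that hold each one is given beside it. The interferon-stimulated response element (2.98%), the gamma-activated site TTCNNNGAA (7.02%), the RUNX core TGTGGT (14%), the AP-1 site TGANTCA (6.75%), the p53 half-site (7.13%) and the estrogen response element (0.0639%) had no match in any of the 4 windows. The Grm6 window held 1 match to the NF-kB motif (3.9% of windows), GGGGAGTCCC, beginning 195 bases before the start site, and 2 copies of the GATA motif AGATAA (9.99%) on the minus strand, beginning 133 and 114 bases before it. The internal Ano3 start had a match to the TATA box motif TATAAA (12.4%) beginning 175 bases before it. It also had a match to the E-box motif CAGCTG (13%) beginning 20 bases before it. The upstream Ano3 start and the Scin start held 0 matches to any of the 10. The windows had no motif in common. Their GC content was 43.6% to 52.4%, where the median of all windows was 52.4%, and their CpG observed over expected ratio ran from 0.254 at the internal Ano3 start to 0.6 at the Scin start, around the median of 0.373. None of this says which start was used in these cells.

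In oil the genes formed 2 tiers. Grm6 had 0, 1 and 0 counts in oil 1, 3 and 4. Cdh13 had 0, 0 and 3 counts, and Scin had 1, 1 and 3 counts in the same libraries. These 3 genes were thus at or below 3 counts in each oil library. Ano3 was low but present, with 9.5, 11 and 11.5 counts, or 0.571 ± 0.0427 CPM (SD, n = 3). Pkp1 had 19.5, 33 and 9.5 counts, or 1.08 ± 0.544 CPM (SD, n = 3). The word silent therefore fits Grm6, Cdh13 and Scin, and the levels of Ano3 and Pkp1 were low rather than absent.

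In the libraries labelled tamoxifen all 5 genes were detected in all 3 libraries. Grm6, the retinal glutamate receptor, had 357, 665.5 and 20.5 counts in tamoxifen 1, 2 and 4. Cdh13, the adiponectin-binding cadherin, had 121, 184.5 and 13.5 counts, and Scin, the actin-severing protein, had 52.5, 266.5 and 26 counts. Tamoxifen 2 was highest and tamoxifen 4 lowest for each of these 3 genes. Ano3 had 157, 197 and 116.5 counts in tamoxifen 1, 2 and 4, with the same order of libraries but a narrow range. Pkp1 had 200, 171 and 166.5 counts, nearly level across the 3 libraries. The lowest tamoxifen level was above the highest oil level for all 5, by 5.01 times for Cdh13, 5.73 times for Pkp1, 9.31 times for Scin, 10.4 times for Ano3 and 22.8 times for Grm6 in CPM. Groups did not overlap in this direction for 13.3% of all genes tested, and since the genes were chosen for this difference nothing is read from the count.

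**Figure D1:**
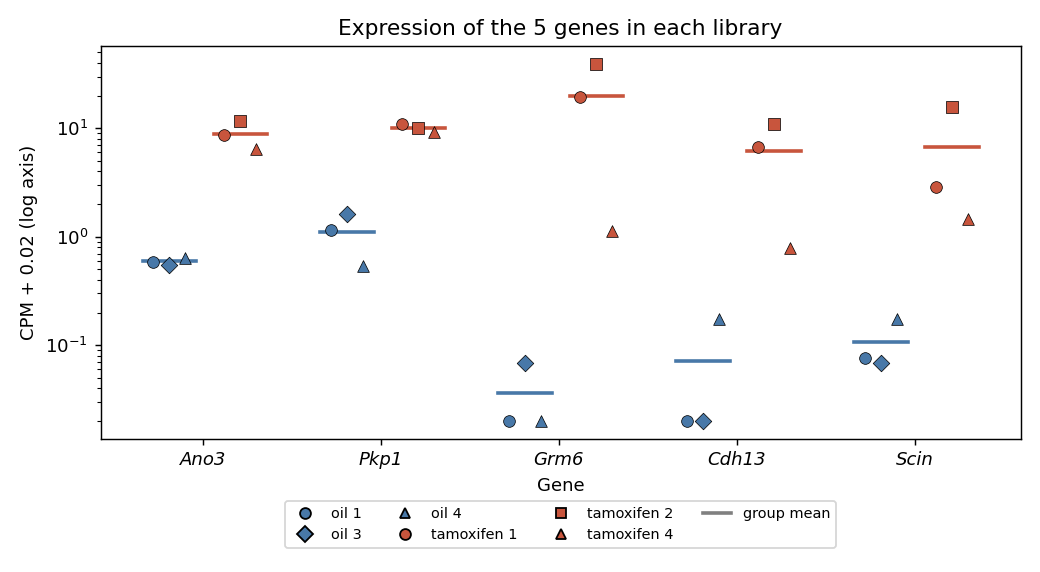
Expression of the 5 genes in each of the 6 libraries, as CPM plus 0.02 on a log axis, with blue symbols for oil, red symbols for tamoxifen and bars for the group means (n = 3). Every red symbol lies above every blue symbol of the same gene, and the red triangle of tamoxifen 4 is the lowest red symbol in all 5.

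The size of the difference was largest for the genes that were silent in oil. Against 3 counts per oil library, Grm6 was at least 128-fold higher in tamoxifen by its group mean, Scin at least 42.7-fold and Cdh13 at least 39.0-fold. Without tamoxifen 2 these bounds were 66.3-fold, 13.7-fold and 23.7-fold, so that library carried much of each. Ano3 went from 0.571 to 8.89 ± 2.62 CPM (SD, n = 3), 15.6-fold higher, and Pkp1 from 1.08 to 10.1 ± 0.902 CPM (SD, n = 3), 9.34-fold higher. Leaving out any 1 library kept the fold of Ano3 between 13.2 and 17.7 and that of Pkp1 between 7.40 and 12.3. Taken library by library, tamoxifen 4 was 11.2-fold above the oil mean for Ano3 and 8.49-fold for Pkp1, while it was at least 7.07-fold, 9.20-fold and 4.95-fold above the floor for Grm6, Scin and Cdh13. The median log2 fold change of the 5 genes was 6.16 as fitted and 5.29 with the silent genes at their bounds, beside 0.000119 over all genes tested.

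**Figure D2:**
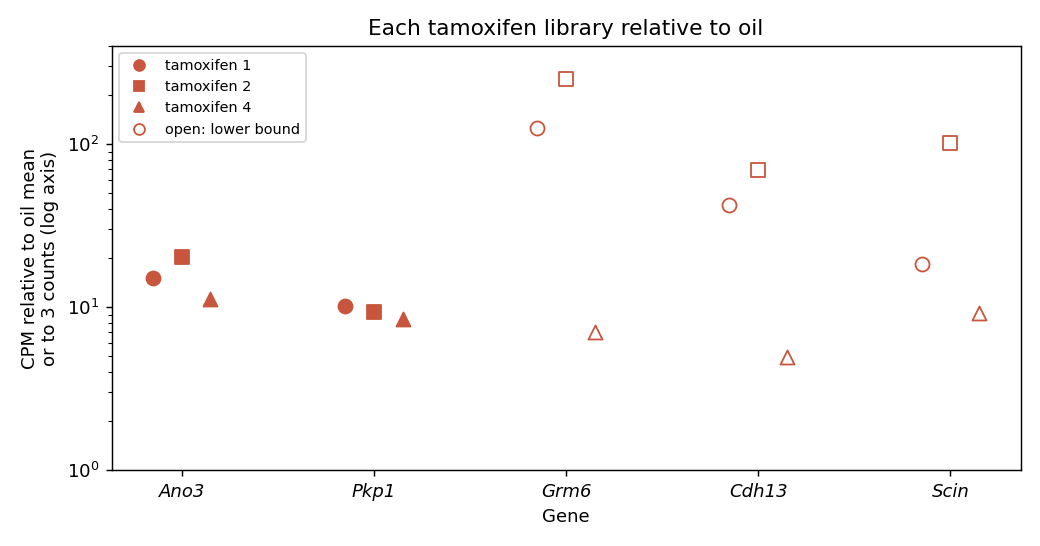
CPM of each tamoxifen library relative to the oil mean (filled symbols) or to 3 counts per oil library (open symbols, lower bounds), on a log axis. The 3 libraries lie close together for Ano3 and Pkp1, from 8.49 to 20.4, and far apart for Grm6, Cdh13 and Scin, from 4.95 to 252.

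In the edgeR quasi-likelihood test 5 of 5 genes had an adjusted p-value under 0.05 in the direction of higher tamoxifen levels, where 1.75% of all genes tested did. The genes were chosen on this contrast, so the count is no evidence about them. When each library was left out in turn, Ano3 was called in 6 of 6 fits and Pkp1 in 3 of 6, being lost without oil 1, without tamoxifen 1 and without tamoxifen 2. Grm6, Cdh13 and Scin were called in 1 of the 6, the fit without tamoxifen 4. That fit called 19.2% of all genes higher and each of the others 0.0674% to 0.135%, so the calls of these genes came and went with those of the whole table.

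The spread among tamoxifen libraries separated the genes further. The highest tamoxifen level was 35.6 times the lowest for Grm6, 14 times for Cdh13 and 10.9 times for Scin, but 1.81 times for Ano3 and 1.2 times for Pkp1. Over the 11199 tested genes with a tamoxifen mean of at least 1 CPM the median of this ratio was 1.3, and 0.223% of them reached 10. A ratio as large as that of Grm6 was found in 0.0357% of these genes, as large as that of Ano3 in 14.9%, and as large as that of Pkp1 in 68.6%. Against all these genes Grm6, Cdh13 and Scin were therefore among the most uneven of the group, and Pkp1 was more even than the median gene. Such unevenness was not particular to these genes among those low in oil. There Serpina3g had 149, 155 and 6.52 CPM and Tcea3 6.48, 12.2 and 0.884 CPM in tamoxifen 1, 2 and 4. Esrrb, also low in oil, was more even, at 2.96, 2.01 and 2.04 CPM. Scin differed from Grm6 and Cdh13 in where the step lay: tamoxifen 1 was 17.7 times tamoxifen 4 for Grm6 and 8.58 times for Cdh13, but 1.99 times for Scin, whose high value was that of tamoxifen 2 alone. Of all 203 genes called higher, 163 were lowest in tamoxifen 4 and 149 highest in tamoxifen 2, so this order was also that of most other genes called.

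Levels were compared between the genes per kilobase of annotated exon. In oil the order was Pkp1 (0.215 ± 0.108 CPM per kb), Ano3 (0.0791 ± 0.00592), Scin (0.0288 ± 0.0197), Cdh13 (0.00458 ± 0.00793) and Grm6 (0.00298 ± 0.00516; SD, n = 3 each), and the last pair overlapped, while the last 3 rest on 3 counts or fewer per library. In tamoxifen the mean was highest for Grm6 (3.69 ± 3.53 CPM per kb), then Scin (2.22 ± 2.62), Pkp1 (2.01 ± 0.18), Ano3 (1.23 ± 0.363) and Cdh13 (0.542 ± 0.451; SD, n = 3 each). No neighbors in that order were separated by more than their spread, except Pkp1 and Ano3, whose ranges of 1.83 to 2.18 and 0.888 to 1.61 CPM per kb did not meet. The order also changed with the library. In tamoxifen 2 Grm6 was first at 7.25 CPM per kb and Scin next at 5.24, whereas in tamoxifen 4 Pkp1 was first at 1.83, Ano3 next at 0.888 and Grm6 stood at 0.204. Even at its highest, in tamoxifen 2, Grm6 exceeded 69.5% of 20471 protein-coding rows per kilobase, and the other 4 genes exceeded at most 64.9% in any library.

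Relatives of the 5 genes were examined next, since the choice did not use them. In all, 64 relatives and partners were listed, all were rows of the table, and 22 had enough counts to be tested. At an edgeR adjusted p-value under 0.05, 0 were higher and 0 were lower, beside 1.75% and 0.267% of all genes tested, and 6 were higher and 0 lower at an unadjusted p-value under 0.05, where 20.6% of all genes tested passed and 12.6% were higher. DESeq2 called 2 of 28 higher, Avil and Perp, and 0 lower, where it called 5.91% of all genes higher and 1.76% lower. Without tamoxifen 4, edgeR called 7 relatives higher and 2 lower, and 19.2% of all genes higher and 17.1% lower.

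Among the anoctamins, 3 of 9 relatives of Ano3 were tested and none of the 3 was called. Ano6, the scramblase that exposes phosphatidylserine on activated platelets, was the most abundant at 303 CPM in oil and 340 CPM in tamoxifen, with a log2 fold change of 0.17 (SE 0.09, edgeR adjusted p = 0.32). Per kilobase Ano6 stood at 27.7 CPM in tamoxifen, beside 1.23 for Ano3. The 6 others did not exceed 0.709 CPM in any library, and 3 of them had 0 counts throughout.

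The desmosome list gave Pkp1 few partners. Of 14 genes 4 were tested, and 7 had 0 counts in all 6 libraries, including Dsp, which encodes the desmoplakin that links plaques to keratin, and the desmosomal cadherins Dsg2, Dsc2, Dsg1a, Dsg3, Dsc1 and Dsc3. Perp, a desmosomal membrane protein that is also a p53 target, had the largest log2 fold change of the list at 2.25 (SE 0.74, edgeR adjusted p = 0.16), with means of 0.458 CPM in oil and 2.2 CPM in tamoxifen. Pkp3, another plakophilin, was present in both groups at 42.1 and 55.4 CPM (log2 fold change 0.40, edgeR adjusted p = 0.236). The other tested genes of the list, Jup (5.81 and 6.44 CPM, adjusted p = 0.71) and Evpl (3.98 and 2.69 CPM, adjusted p = 0.478), were present in both groups. Pkp1 transcript was thus higher in tamoxifen in cells in which transcripts of the desmosomal cadherins listed were not detected.

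The retinal partners of Grm6 were also largely missing. Of 18 genes 4 were tested and 8 had 0 counts in all libraries, among them Trpm1, the cation channel that mGluR6 closes, and the glutamate receptors Grm2, Grm3, Grm4, Grm5 and Grm7. Grm8 did not exceed 0.113 CPM. Nyx, which encodes nyctalopin, was near 0 in oil (mean 0.0171 CPM) but reached 0.274 to 0.531 CPM across the tamoxifen libraries, without overlap. Its counts did not exceed 9 in any library, and it was not tested. Gnb5, also untested, had means of 0.145 CPM in oil and 0.567 CPM in tamoxifen, and its groups overlapped. Gnao1, which encodes the G protein subunit that the receptor couples to, had at most 0.11 CPM. Rgs9bp, Gng13 and Rgs11 were expressed in both groups, with log2 fold changes of 0.66, -0.13 and -0.12 (edgeR adjusted p = 0.498, 0.884 and 0.895). The largest difference among those tested was that of Rgs7, a regulator of G protein signaling, with a log2 fold change of -1.13 (SE 0.78, edgeR adjusted p = 0.422). None of the other receptors named here thus exceeded 0.113 CPM in any library.

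For Cdh13, 4 of 16 cadherins, catenins and ligands were tested and 7 had 0 counts throughout, including the endothelial cadherin Cdh5 and the adiponectin gene Adipoq. The catenins, which join classical cadherins to actin, were abundant and similar between groups: Ctnna1 had 400 CPM in oil and 384 CPM in tamoxifen, and Ctnnb1 306 and 284 CPM. Cdh24 had the largest log2 fold change among those tested, 0.64 (SE 0.40, edgeR adjusted p = 0.375), from 1.08 to 1.69 CPM. Cdh1 and Cdh2, the epithelial and neural cadherins, did not exceed 0.059 and 0.295 CPM in any library.

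The gelsolin superfamily differed from the other lists in that all 7 relatives of Scin were expressed and tested. None was called, while 4 had an unadjusted p-value under 0.05, all with higher tamoxifen means. Gsn, which encodes gelsolin, had 274 CPM in oil and 537 CPM in tamoxifen (log2 fold change 0.97, SE 0.32, edgeR adjusted p = 0.158). Avil, which encodes advillin, had 168 and 323 CPM (0.94, SE 0.25, adjusted p = 0.1), and was called by DESeq2 and, in edgeR, without tamoxifen 4 and with the replicate number as a block, a fit that called 1.85% of all genes higher and 0.224% lower. Vill had the largest log2 fold change, 1.42 (SE 0.56, edgeR adjusted p = 0.22), at 1.43 and 3.84 CPM, and Capg, the capping protein without severing activity, had -0.09 (SE 0.09, adjusted p = 0.555). Per kilobase Gsn reached 170 CPM in tamoxifen and Scin 2.22 CPM, so Scin added little to the summed transcript of its family.

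**Figure D3:**
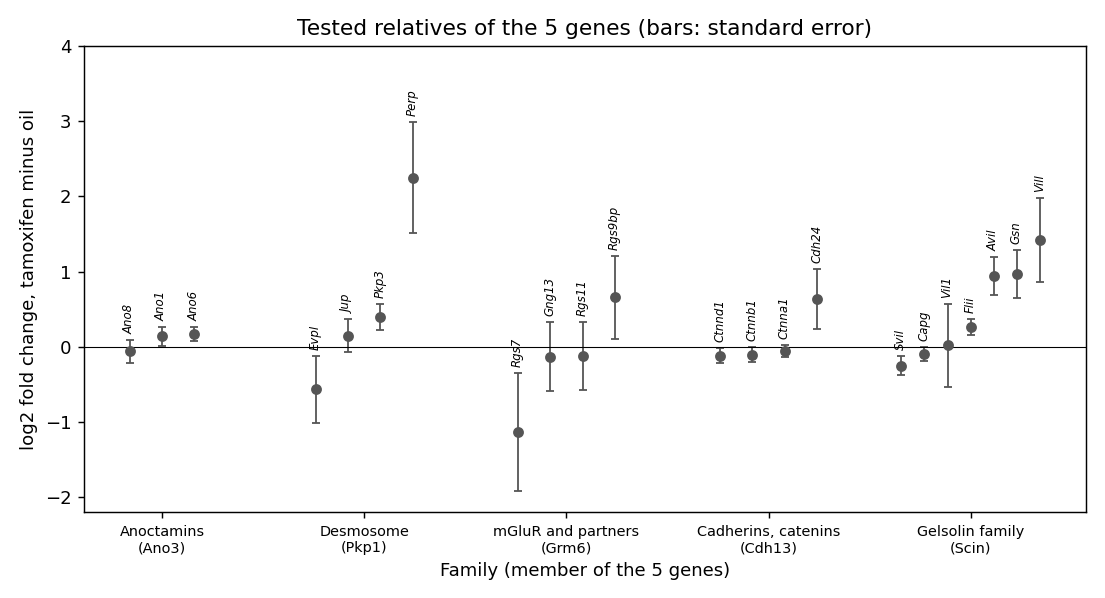
Log2 fold changes (tamoxifen minus oil) of the 22 relatives that were tested, grouped by the gene they are related to, with standard errors from the edgeR fit (3 libraries per group). None had an adjusted p-value under 0.05, and the largest value is that of Perp at 2.25.

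Genes around the 5 loci were compared to see whether the difference extended along the chromosome. The 10 nearest protein-coding genes on each side gave 100 neighbors, of which 94 were rows of the table and 46 were tested. They lay as far as 4718255 bp away, for a neighbor of Scin, so their pooled shares do not describe the immediate surroundings alone. With 1 higher and 1 lower at an edgeR adjusted p-value under 0.05, each share was 2.17%, where 1.75% of all genes were higher and 0.267% lower. The lower share rests on a single gene. The unadjusted edgeR p-value was under 0.05 for 10 of the 46 with higher and 3 with lower tamoxifen levels, beside 12.6% and 7.99% of all genes tested. Groups did not overlap for 12 of the 46 with tamoxifen above oil and for 6 with tamoxifen below oil, beside 13.3% and 11.8% of all genes tested. In the higher direction both shares of the neighbors were above those of all genes. Whether a list of this size would reach them anyway was not tested.

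The neighbor that was higher was Plcg2, which encodes a phospholipase of immune receptor signaling and lies 648590 bp from Cdh13. It went from 1.03 to 7.48 CPM (log2 fold change 2.84, edgeR adjusted p = 0.0399). The neighbor that was lower was Camsap2, which encodes a microtubule minus-end protein, 348915 bp from Pkp1. It went from 16.6 to 4.04 CPM (log2 fold change -2.03, edgeR adjusted p = 0.0395). Both differences kept their sign in 11 of 11 alternatives. Both calls were lost in 5 of the 6 fits that left out a library, in which 8 to 16 genes in all were called higher and 0 lower, and held without tamoxifen 4, where 19.2% and 17.1% of all genes were called.

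Of the genes directly beside the 5 loci, some were silent in both groups, some had low counts mainly in tamoxifen and some were expressed in both. Zfp879 and Zfp454, which flank Grm6 at 9132 and 6511 bp, had 0 counts in all libraries, as did Slc5a12 beside Ano3 and Lsmem1 beside Scin. Next beyond Zfp879, at 22960 bp from Grm6, Zfp354c had 0 counts in every oil library and 22, 17 and 0 counts in tamoxifen 1, 2 and 4. It was low in the same tamoxifen library as Grm6, was not tested with all libraries, and was called higher without tamoxifen 4 (it is named after its values were seen). Muc15, which overlaps Ano3, had 0 counts in every oil library and 4, 5.5 and 0 counts in tamoxifen 1, 2 and 4, and was not tested. Tnnt2, 19134 bp from Pkp1, had means of 0.0162 CPM in oil and 0.169 CPM in tamoxifen, and was not tested. Igfn1 on the other side of Pkp1 had 0.291 and 1.32 CPM (log2 fold change 2.15, edgeR adjusted p = 0.208). Arl4a beside Scin (0.27, adjusted p = 0.192) and Hsbp1 and Mphosph6 beside Cdh13 (0.20 and -0.16, adjusted p = 0.24 and 0.49) were expressed in both groups and were not called.

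**Figure D4:**
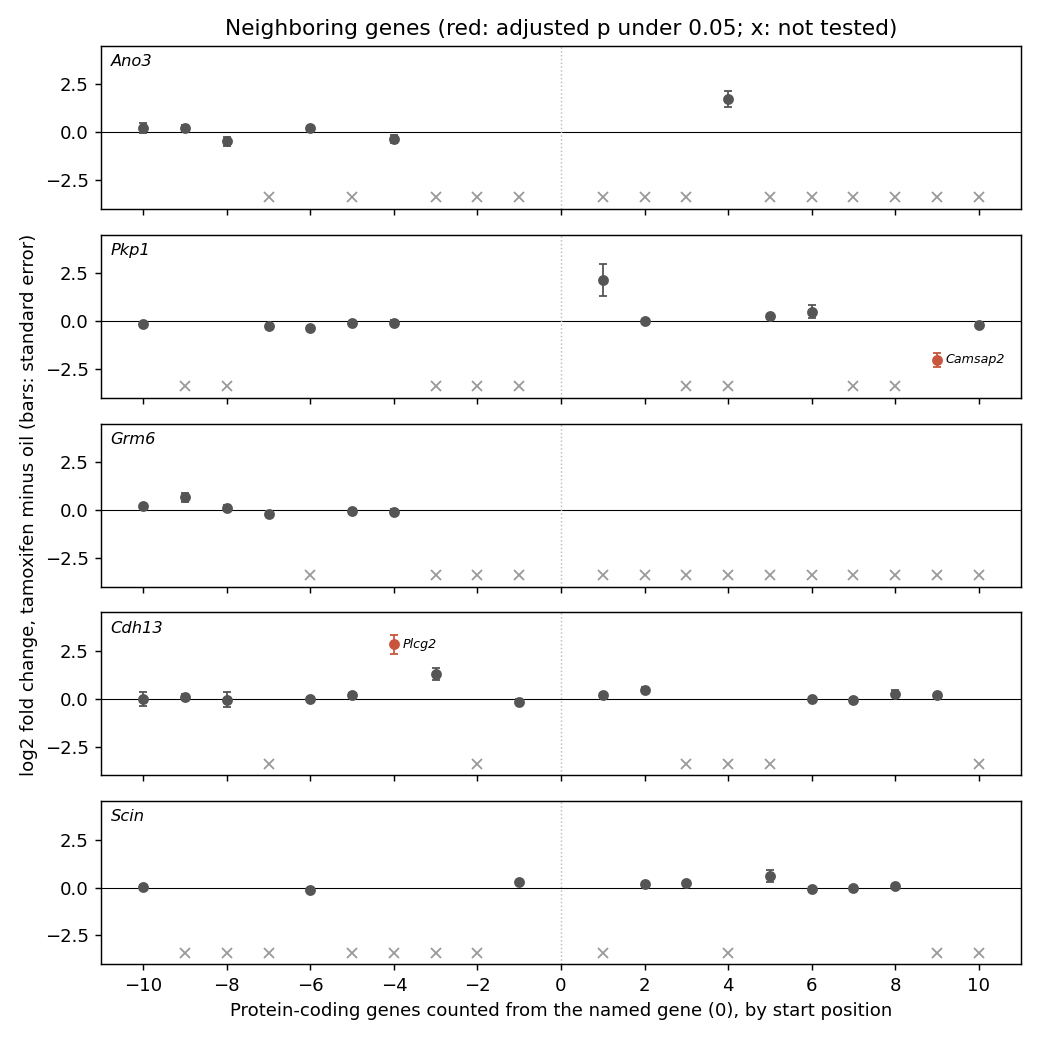
Log2 fold changes (tamoxifen minus oil) of the 10 protein-coding genes on each side of the 5 loci, in order along the chromosome, with standard errors, crosses for genes that were not tested and red for an edgeR adjusted p-value under 0.05. The 2 red symbols are Plcg2 near Cdh13 and Camsap2 near Pkp1, and the places directly beside the 5 loci hold mostly crosses.

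To place the genes among all others of the same shape, rows with 3 counts or fewer in each oil library and 10 or more in each tamoxifen library were counted. There were 11 such rows, 0.415% of the 2650 rows at or below 3 counts in each oil library. Grm6, Scin and Cdh13 held the 3 highest mean tamoxifen levels among them, at 20 CPM, 6.67 CPM and 6.09 CPM. CPM is not scaled to exon length, and these genes were chosen on these levels, so nothing is read from their place. Next came Cd53, a leukocyte tetraspanin, at 2.97 CPM, Gzmb, the cytotoxic protease granzyme B, at 2.63 CPM, and the non-coding Gm14005 at 2.15 CPM. The cytokine gene Lif had 1.96 CPM, the chemokine receptor gene Ccr1 1.57 CPM, the serotonin transporter gene Slc6a4 1.21 CPM and the RNA-binding protein gene Cpeb2 1.16 CPM. The inflammatory caspase gene Casp1 was the lowest at 0.87 CPM. Per kilobase of exon Cdh13 stood lower, at 0.542 CPM in tamoxifen, below Gzmb (1.83), Cd53 (1.71), Casp1 (0.581) and Ccr1 (0.554). Of the 11, 8 were lowest in tamoxifen 4 and 10 were highest in tamoxifen 2. In the opposite direction 2 rows were found, Trib1 and Myo1a, or 0.0888% of 2251. Ano3 and Pkp1 fall outside this count through their oil levels. Among the 36 genes called higher by edgeR with an oil mean under 2 CPM and a fitted fold of at least 8, a limit set after the values were seen, they ranked 12 and 10 by mean tamoxifen CPM, and Grm6, Scin and Cdh13 ranked 5, 15 and 17.

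**Figure D5:**
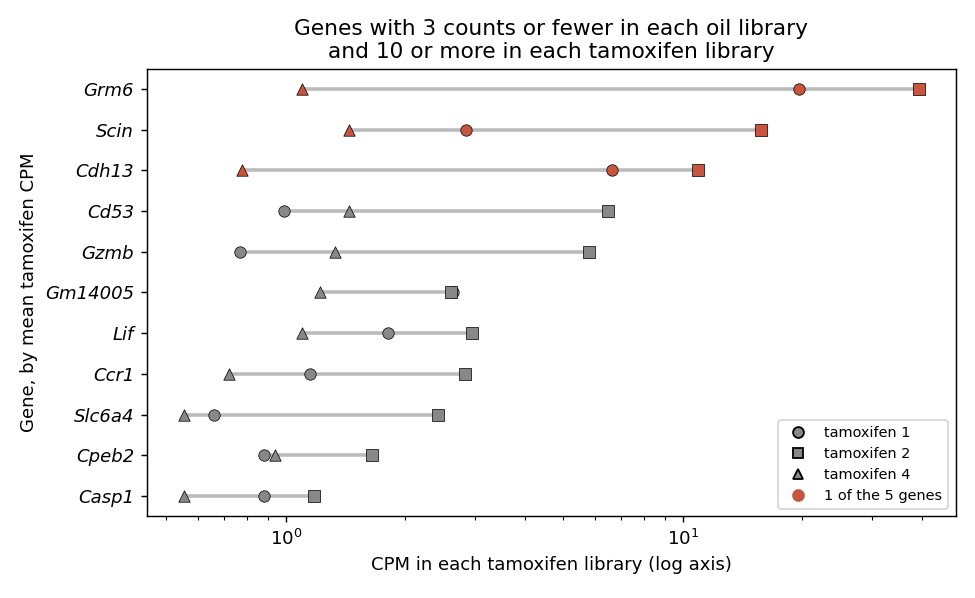
CPM in each tamoxifen library, on a log axis, of the 11 rows with 3 counts or fewer in each oil library and 10 or more in each tamoxifen library, ordered by mean. Grm6, Scin and Cdh13 (red), which were chosen on these levels, are the first 3 rows by CPM not scaled to exon length. Their lines, from the lowest to the highest library, are the longest.

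The genes with the profile most like each of the 5 were sought by Pearson's r of log2 CPM over the 6 libraries. The libraries fall into 2 groups, so a high r mostly repeats the difference between them, and between 303 (Pkp1) and 1079 (Grm6) of 11593 genes had an r over 0.9. Nearest to Ano3 were 4930429B21Rik, Irf5 and Akr1c13, and nearest to Pkp1 were Mov10, Esrrb and Slc25a4. Of these, Esrrb, an orphan nuclear receptor gene, had 0.102 CPM in oil and 2.34 ± 0.542 CPM in tamoxifen (SD, n = 3), and its tamoxifen libraries ran from 2.01 to 2.96 CPM. Nearest to Grm6 were Il10ra, Celf2 and Wipf1, nearest to Cdh13 were Nell2, Nck2 and Ptpn2, and nearest to Scin were Rps15a-ps6, Cmtm7 and Tdrd7. Rps15a-ps6 is a pseudogene whose reads are uncertain beside those of its parent gene. Il10ra, the interleukin 10 receptor chain, went from 4.69 ± 0.227 to 51.1 ± 35.3 CPM (SD, n = 3 each), with an r of 0.9989 to Grm6. Between the 5 genes themselves r ran from 0.84 for Pkp1 and Cdh13 to 0.982 for Grm6 and Cdh13.

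Markers of the tissues from which the genes are known were near 0, except Prkca and Vwf. In bulk samples a change in the number of cells of a type and in the RNA per cell cannot be told apart. The 6 keratinocyte markers summed to at most 0.309 CPM in any library, with Krt14, Krt1, Trp63 and Lor at 0, the 4 epithelial markers to at most 0.166 CPM, with Epcam, Krt8 and Krt19 at 0, and the 5 stromal markers to at most 0.507 CPM. Of the retinal and neuronal markers Rbfox3 and Snap25 were at 0, and the sum of 83 to 135 CPM was almost all Prkca, a widely expressed kinase gene. Prkca had 85.7 CPM in oil and 118 CPM in tamoxifen (edgeR adjusted p = 0.101), and the tubulin gene Tubb3 had 0.457 and 1.34 CPM (adjusted p = 0.225). Both were without overlap between the groups, and neither was called. Of the endothelial markers Cdh5 was at 0, and the sum of 11.7 to 18.9 CPM was almost all Vwf. It had 12.2 CPM in oil and 16.1 CPM in tamoxifen, without overlap, and was not called (edgeR adjusted p = 0.2). T and NK cell, B cell and neutrophil markers summed to at most 0.412 CPM.

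The summed markers of 2 blood lineages were higher in every tamoxifen library than in any oil library, but not these alone. The 5 markers of the sorted leukemia cells summed to 936 to 974 CPM in oil and 994 to 1490 CPM in tamoxifen. The retinal and neuronal markers summed to 83 to 89.9 CPM and 99 to 135 CPM, and the endothelial markers to 11.7 to 12.9 CPM and 14.5 to 18.9 CPM. The 5 megakaryocyte markers summed to 4.95 to 6.28 CPM in oil and to 25.2, 52.1 and 12.3 CPM in tamoxifen 1, 2 and 4, almost all of it Itga2b, a platelet integrin gene also found on progenitors, which was called (log2 fold change 2.51, edgeR adjusted p = 0.0435), while Pf4 was at 0 in every library but tamoxifen 2, where it had 0.531 CPM. The 6 mast cell markers, all expressed, summed to 1250 to 1410 CPM in oil and to 2080, 4230 and 1730 CPM in tamoxifen 1, 2 and 4, and 1 of them, Tpsb2, was called (log2 fold change 4.16, edgeR adjusted p = 0.0402). The sum differed mainly through Cma1 (269 and 1200 CPM, adjusted p = 0.0551) and Cpa3 (132 and 571 CPM, adjusted p = 0.064). Ms4a2, the most abundant of the list in oil, had 896 CPM in oil and 872 CPM in tamoxifen (adjusted p = 0.807), and Mcpt4 had 17.8 and 29.4 CPM (adjusted p = 0.344). The megakaryocyte and mast cell sums were highest in tamoxifen 2 and lowest in tamoxifen 4, the order of Grm6, Cdh13, Scin and Ano3. The sums of the sorted leukemia cell markers and of the retinal and neuronal markers had this order too. The progenitor marker Cd34 had 8.43 to 11.7 CPM in oil and 113, 134 and 41.8 CPM in tamoxifen 1, 2 and 4 (log2 fold change 3.27, edgeR adjusted p = 0.0232). The 6 macrophage markers summed to 1.94 to 5.8 CPM in oil and 3.65 to 6.79 CPM in tamoxifen, and the 4 erythroid markers to 2200 to 3490 and 1770 to 4390 CPM, so both ranges overlapped. The part of these lineages in the levels of the 5 genes was not tested.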

How the data were processed

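RNA-seq libraries of sorted AE9a leukemia cells (3 oil, 3 tamoxifen) were analysed from the table the authors deposited, which holds estimated counts per gene symbol not all whole numbers and with no scaling between libraries. The submitters' processing notes name STAR, DESeq2 and mm10, and the counting program, annotation and strand setting are not given in the sources used here. Counts were rounded to whole numbers (ties to the even number). The quasi-likelihood F test of edgeR 4.0.16 (R 4.3.3) followed TMM scaling and the filterByExpr filter, with Benjamini-Hochberg adjustment over 11614 genes. Between 25.9% and 27.3% of the values of a library were not whole. Column numbers differ from sample titles, so the columns oil 3 and tamoxifen 2 entered only as members of the group in their name, and no label says that a shared number marks a pair. The labels call the replicates biological.

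The 5 genes, the lists of relatives, neighbors and markers and the tests were chosen with earlier results of these data known. Named genes are Usp18, the 5 genes, relatives and neighbors that were called, the largest difference in each family, the nearest neighbors, the 10 highest rows of the 11 that were silent in oil, and the 3 most similar profiles. Other relatives and markers, Zfp354c, Mx2, Ifit1, Oas2, Casp1, Trib1, Myo1a, Serpina3g and Tcea3 were named after their values were seen. Folds of genes with 3 counts or fewer in each oil library were computed against 3 counts per library and are lower bounds. Values of some single genes of these lists are not reported here. Standard errors came from the F statistics. Exon lengths and neighbors came from GENCODE M21. Alternatives were DESeq2 size factors in edgeR, no low-count filter, the DESeq2 1.42.0 Wald test, unrounded counts, a replicate block, other count limits and each library left out. On simulated data of 11614 genes the scripts recovered 98% of 4-fold and 100% of 16-fold changes, with 16 false calls. The changed genes were drawn from the better-counted ones, and no simulated library stood apart as tamoxifen 4 does. These shares therefore check the scripts and do not give the power of the test in these data.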

Additional observations from a re-analysis of the deposited data

How the results depend on the processing

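All 5 genes were higher in tamoxifen in all 11 alternative fits. Their median log2 fold change of 6.16 moved to 4.172 with the replicate block and to 4.534 without tamoxifen 2, and lay between 5.861 and 6.804 in the other alternatives. The DESeq2 Wald test called 749 genes higher and 223 lower where 203 and 31 are reported, with 2 relatives higher, 4 neighbors higher and 2 lower. Without a low-count filter there were 372 and 61, with 2 neighbors higher. Leaving out 1 library at a time gave 8 to 2278 genes higher and 0 to 2024 lower, 0 to 7 relatives higher and 0 to 2 lower, and 0 to 13 neighbors higher and 0 to 7 lower, where every upper value came without tamoxifen 4. Fitting the replicate block called 215 genes in the higher and 26 in the lower direction, among them 1 relative, Avil, and the 5 genes, Plcg2 and Camsap2 were still called. Numbers 1 and 4 occur in both groups, and the deviations of libraries with the same number had correlations of -0.127 and 0.0616, which gives no sign of pairs beyond the shared number. The block compares groups through the 4 libraries numbered 1 and 4 alone, since oil 3 and tamoxifen 2 have no partner.

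The rows silent in oil and present in tamoxifen, 11 as reported, were 5 at 1 count or fewer, 79 at 10 counts or fewer and 4 at 20 or more tamoxifen counts, and ran from 13 to 44 with 1 library left out. The mirror count, 2 as reported, was 0, 22 and 0, and ran from 2 to 7. The cause was not tested, except that fewer libraries or looser limits admit more rows. Depth limits Grm6, Cdh13 and Scin in oil, for which only bounds are given.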
